A study of Mus musculus with 54 samples.

Results

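The set described here is Rraga, which encodes the small GTPase RagA, together with 8 genes whose proteins work with RagA at the lysosome: Rragc, Rragd, Lamtor1, Lamtor2, Flcn, Rheb, Mtor and Rptor. The 9 genes were taken from the table of liver expression values by their symbols, each on 1 of 20162 rows. They were chosen by name with the values known, and selected on the lower mean level of Rraga than in control at every dose of di-isononyl phthalate (DINP), a plasticizer. The differences of the 9 genes from control are therefore given as a description, with no p-value. Where the fit's calls among them are counted, nothing is read from the count. Tests were run on what the choice did not use, namely the differences between the dose groups, the relations between the genes within the groups, and other genes of the pathway. Of the 9 genes, 8 had a mean of at least 1 over all mice and entered the fit, together with 11431 rows in all. Rragd did not, and its values are described only. Rragb, which encodes RagB, the closest relative of RagA, was not analysed here.

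All mice were wild-type male C57BL/6J animals, housed singly, that ate a high-fat diet from the age of 8 weeks. DINP was taken daily for 20 weeks in a flavoured gelatin pellet. The control group (n = 14 mice) was given the pellet without DINP, and the exposed groups took 1.5 mg/kg bw/d (n = 13), 15 mg/kg bw/d (n = 13) or 150 mg/kg bw/d (n = 14), called the low, middle and high dose here. There was no group on a standard diet, so every value below is from a liver under high-fat feeding. RNA came from the medial lobe of the liver, and the libraries cover the 3′ ends of polyadenylated RNA. The values appear, from their steps and sums, to be TPM, a measure of transcript abundance per length and library, rounded to whole numbers and then scaled between samples. They are called normalized TPM here. In 3′ libraries the read number of a gene does not grow with its length, whereas TPM divides by length, so levels of long and short transcripts are not compared. The smallest step between values was 0.764 to 1.11 normalized TPM, depending on the mouse, and the sequencing depth is not recoverable from the table.

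The mTORC1 kinase complex promotes protein and lipid synthesis and restrains autophagy when nutrients are ample. Amino acids act on it through the Rag GTPases: a dimer of RagA or RagB with RagC or RagD, held on the lysosomal membrane by the Ragulator scaffold (Lamtor proteins), recruits mTORC1 by binding its subunit Raptor, encoded by Rptor. There the GTPase Rheb, which the TSC complex keeps in check, activates the mTOR kinase. Folliculin, encoded by Flcn, acts with its FNIP partners on RagC and RagD. In the liver, mTORC1 is known for its part in the response to feeding and insulin.

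Rraga lies on mouse chromosome 4 (GRCm38, chr4:86575668-86577285, plus strand) and is annotated as 1 exon with a transcript of 1618 bases. No 50-base stretch of that transcript occurs in the annotated transcripts of another gene. For Lamtor1 and Rragc, 18.4% and 8.84% of such stretches do occur in other genes, but none of these lies in the last 500 bases, where 3′ libraries read. For Rheb, 12 of the 451 stretches in the last 500 bases are shared. RefSeq promoters (GRCm38.p6, 250 bases before to 50 bases after the start) were at hand for all 9 genes. Those of Rraga and of the 3 partners that differed between dose groups follow, 5′ to 3′ in the direction of the gene, so that the sequence upstream of the gene that was lower at every dose can be set beside the others. Capitals mark 3 short motifs, each sought on both strands and none overlapping another here: the E-box CACGTG, whose core is bound by TFEB and related factors that act on lysosomal genes; CTCGCGAG, found in many promoters of widely expressed genes; and CCGGAAGT, of the kind bound by ETS factors. The motifs were picked after the sequences had been seen.
Rraga (chr4:86575423-86575722, plus strand): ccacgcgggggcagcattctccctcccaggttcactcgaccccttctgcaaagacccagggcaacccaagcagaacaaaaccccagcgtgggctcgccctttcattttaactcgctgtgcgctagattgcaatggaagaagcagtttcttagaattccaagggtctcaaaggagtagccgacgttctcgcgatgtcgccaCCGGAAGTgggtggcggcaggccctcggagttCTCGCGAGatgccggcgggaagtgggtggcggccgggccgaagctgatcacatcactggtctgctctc
Rragc (chr4:123917183-123917482, plus strand): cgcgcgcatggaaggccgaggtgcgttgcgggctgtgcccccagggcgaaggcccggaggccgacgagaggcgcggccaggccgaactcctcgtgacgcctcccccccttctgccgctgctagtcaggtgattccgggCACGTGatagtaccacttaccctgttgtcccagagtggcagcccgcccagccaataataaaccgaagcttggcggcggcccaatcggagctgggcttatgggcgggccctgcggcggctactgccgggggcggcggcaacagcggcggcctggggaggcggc
Lamtor1 (chr7:101905587-101905886, plus strand): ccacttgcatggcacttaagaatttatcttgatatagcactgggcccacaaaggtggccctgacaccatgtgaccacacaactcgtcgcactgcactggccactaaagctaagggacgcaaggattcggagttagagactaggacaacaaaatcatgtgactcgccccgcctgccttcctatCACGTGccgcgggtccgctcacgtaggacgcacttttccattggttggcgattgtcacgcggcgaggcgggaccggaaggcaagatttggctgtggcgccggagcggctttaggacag
Rheb (chr5:24842312-24842611, minus strand): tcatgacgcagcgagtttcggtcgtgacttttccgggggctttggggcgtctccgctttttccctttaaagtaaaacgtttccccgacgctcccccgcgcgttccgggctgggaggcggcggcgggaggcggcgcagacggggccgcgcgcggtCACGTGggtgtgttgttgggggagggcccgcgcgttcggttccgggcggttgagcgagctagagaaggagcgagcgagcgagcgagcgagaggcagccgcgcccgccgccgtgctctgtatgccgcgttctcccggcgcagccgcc

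The E-box stood in 3 of the 9 promoters, those of Rragc, Lamtor1 and Rheb, and in 7.15% of 32851 promoters of the same length. CTCGCGAG stood in the promoter of Rraga alone among the 9, and in 0.919% of all promoters. CCGGAAGT stood in those of Rraga and Mtor, and in 3.89% of all. A match is a description of these letters in this window and shows no binding.

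Before the values are read, 8 of the 54 libraries have to be set apart. On the first principal component of 6926 rows with a mean of at least 5, which left out the 9 genes and held 19.4% of the variance, these 8 scored from -44.6 to -22.1, while the other 46 scored from -7.72 to 20.7. They were 6 of the 13 livers at the middle dose (replicates 4 to 9), control replicate 1 and replicate 10 at the high dose. The table does not say what sets them apart, and at the middle dose this feature and the dose cannot be told apart in those 6 mice. The main results that rest on these libraries are given with and without them. In part of the livers at the middle dose, expression also followed the GC content of the transcript ends. The slope of a mouse's log2 deviations from control was -0.072 per 10 percentage points of GC in the median mouse, against -0.0046 among control mice, and it was -0.072 also among the 7 livers at this dose that do not stand apart. The slopes overlapped, from -0.0919 to 0.00525 at the middle dose and from -0.0282 to 0.0410 in control, and replicates 7, 10, 12 and 13 at the middle dose lay within the control range. All 6 hepatocyte markers were present in all mice, and their summed level ranged from 24190 to 50140 normalized TPM in control mice and from 30451 to 53564 at the middle dose. Of 8 marker lists for liver cell types, single genes were called at the middle dose (Ttr of 6 for hepatocytes, Csf1r of 8 for macrophages, Pecam1 of 6 for sinusoidal endothelium) and none at the other doses. The 5 lymphocyte markers were at 0 in 11 (Nkg7) to 49 (Cd79a) of 54 mice. The summed macrophage markers spanned 62.2 to 207 normalized TPM in control mice and 57.6 to 124 at the middle dose. Within the middle dose, the medians of the libraries that stand apart and of the other 7 were 625 and 221 for the summed blood markers and 33.9 and 18.4 for the summed cholangiocyte markers, with overlapping ranges (176.8 to 1069 and 118.0 to 991, and 17.9 to 254 and 15.3 to 32.4). The part of cell makeup in the results below was not tested.

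Rraga was lower in all 3 exposed groups. In control livers it ranged from 57.4 to 107 normalized TPM with a median of 89.1 (mean 87.0 ± 12.1, SD, n = 14). At the low dose it ranged from 42.2 to 75.1 with a median of 51.0 (mean 55.3 ± 10.6, SD, n = 13). At the middle dose the range was 34.3 to 73.9 and the median 58.7 (mean 53.9 ± 12.8, SD, n = 13). At the high dose it was 41.8 to 86.3 with a median of 63.8 (mean 63.6 ± 13.9, SD, n = 14). All 40 exposed livers were below the control median, and 8 of 14 control livers were above the highest exposed one. The groups overlapped: 20 of 40 exposed livers were below the lowest control liver, at 57.4, and 33 of 40 were below the second lowest, at 73.0. In whole tissue, fewer cells that express a gene and less RNA per cell cannot be told apart.

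**Figure D1:**
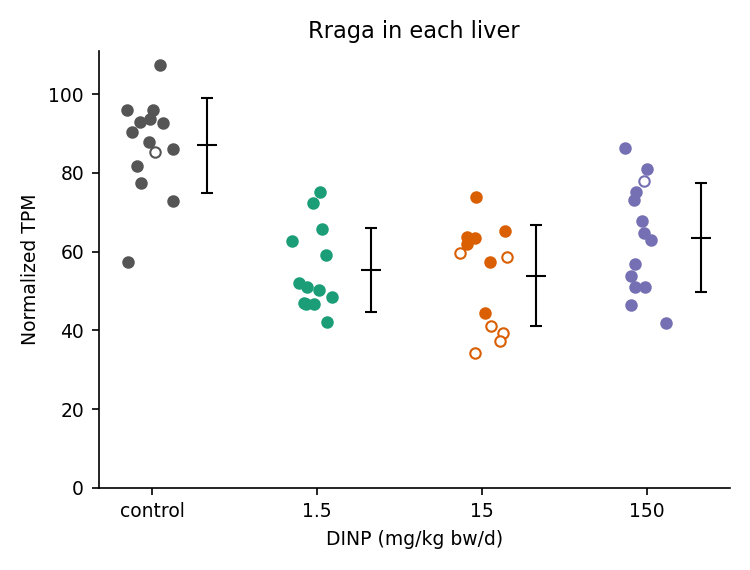
Rraga in each liver (y axis, normalized TPM) by DINP dose (x axis, mg/kg bw/d). Points are mice, open points are the 8 libraries that stand apart, and the bar beside each group is the mean ± SD. All 40 exposed livers lie below the control median of 89.1.

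The log2 fold change (log2FC) of Rraga against control, on the log2(value + 1) scale, was -0.65 (SE 0.11) at the low dose, -0.71 (SE 0.11) at the middle dose and -0.46 (SE 0.11) at the high dose, or 0.637, 0.613 and 0.725 times control. These are the values for which the gene was picked. Of all rows fitted, 18.6% had a negative log2FC at all 3 doses, and 0.0175% (2 rows, Rraga and Laptm4a) were also past the threshold at each. Since Rraga was picked for this, the count is a description of the choice and nothing is read from it.

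The test that the choice of genes left free is whether the doses differed from each other. Rraga did not pass it in any of the 3 contrasts (limma, adjusted over all rows). The log2FC of the low against the middle dose was 0.05 (95% CI -0.17 to 0.28, adjusted p = 0.779). For the low against the high dose it was -0.19 (95% CI -0.41 to 0.04, adjusted p = 0.392), and for the middle against the high dose -0.24 (95% CI -0.47 to -0.02, adjusted p = 0.119). Thus no order of the Rraga levels by dose passed the test, and the intervals allow differences of up to 0.47 on the log2 scale. At the middle dose, 4 of the 6 livers that stand apart were below all 7 others: the medians were 40.3 and 63.4 normalized TPM. The 2 that stand apart in other groups were not low in Rraga, at 85.2 in control and 78.0 at the high dose. Without the 8 libraries the log2FC against control was -0.65, -0.50 and -0.49, and the middle against the high dose came to -0.01 (adjusted p = 0.989).

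Across the set, the fit called 1 of 8 members against control at the low dose (Rraga, beside 1.20% of all rows), 4 of 8 at the middle dose (Rraga, Lamtor1, Rragc and Rheb, beside 14.2%) and 1 of 8 at the high dose (Rraga, beside 2.17%). At the middle dose the count was 2 of 8 (Rraga and Lamtor1) without the 8 libraries, beside 5.31% of all rows. The same 2 were called when any 1 of control replicates 8, 13 and 14 was left out (beside 12.5% to 13.0%). So they were without any 1 of replicates 4 to 9 at the middle dose (10.9% to 14.2%). The count was also 2 without a filter on low values, with the authors' scaling undone, the 2 groups only, a replicate block or array weights (6.53% to 13.3%). Nothing is read from these counts, since the choice used these contrasts. Between doses, 3 of 8 members were called for the low against the middle dose (beside 21.4% of all rows), 1 for the low against the high dose (beside 4.61%) and 3 for the middle against the high dose (beside 20.0%). All 7 of these calls belong to Rragc, Lamtor1 and Rheb. Over the other 46 mice, Lamtor1 was the member called in each of the 3 contrasts, beside 5.05%, 6.88% and 8.32% of all rows.

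**Figure D2:**
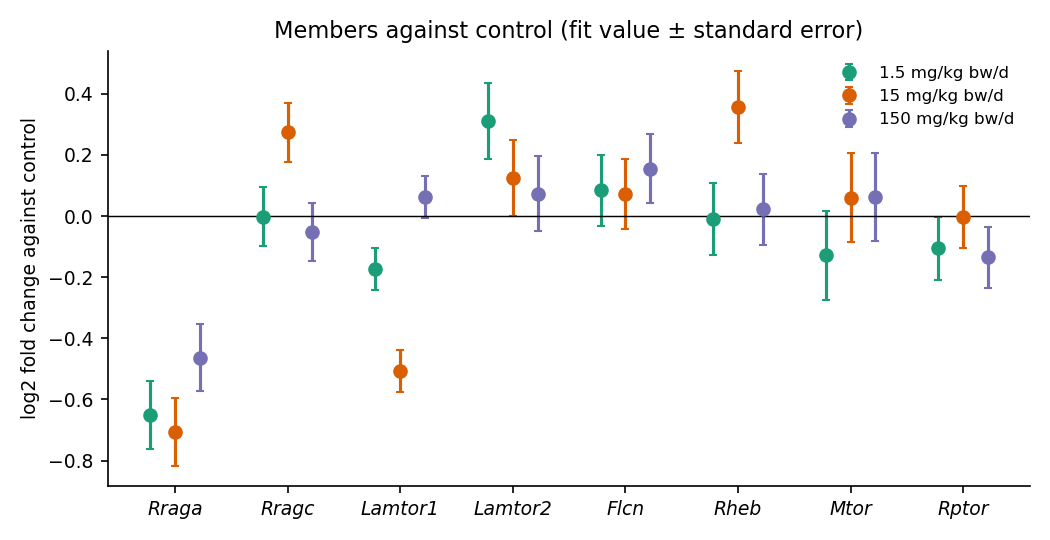
Log2 fold change of 8 members (x axis) against control in the 3 dose groups (colours), with the standard error of the fit. Rraga lies below 0 at each dose, from -0.71 to -0.46, and Lamtor1 at the middle dose (-0.51), while the other genes scatter around 0 apart from Rragc, Rheb and Lamtor2 in single groups.

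RagC, encoded by Rragc, is the GTPase that pairs with RagA. Rragc ranged from 12.1 to 17.7 normalized TPM in control livers (median 14.1), from 10.5 to 18.6 at the low dose (median 14.3), from 11.4 to 30.1 at the middle dose (median 16.9) and from 11.9 to 16.7 at the high dose (median 13.6). The groups overlapped, and the middle-dose group reached higher: 5 of its 13 livers were above the highest control liver. Its log2FC against control at the middle dose was 0.27 (SE 0.10) with all mice and 0.02 (SE 0.08) without the 8 libraries. Rragc was higher at the middle than at the low dose (log2FC of the low against the middle dose -0.28, 95% CI -0.47 to -0.08, adjusted p = 0.0376, limma) and than at the high dose (the middle against the high dose 0.33, 95% CI 0.13 to 0.52, adjusted p = 0.012). These calls rest on the libraries that stand apart, which had a median of 22.6 against 14.6 in the other 7 livers of the group. Without the 8 libraries the values were -0.00 (adjusted p = 0.991) and 0.06 (adjusted p = 0.72). The first call was also lost when any 1 of replicates 6 to 9 at the middle dose or of replicates 1, 5, 7 and 9 at the low dose was left out, with an adjusted p of up to 0.0944.

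Rragd, which encodes RagD, the other partner of RagA, was close to undetected. Its means were 0.393, 0.287, 0.376 and 0.148 normalized TPM in control and in the 3 dose groups, it was listed at 0 in 37 of 54 mice, and no liver was above 1.04, which is 1 step of the scale. The number of livers at 0 was 8 of 14 in control and 8 of 13, 9 of 13 and 12 of 14 at the middle, low and high dose.

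Lamtor1 encodes the subunit that anchors Ragulator in the lysosomal membrane, and it was lower at the middle dose, where its values did not overlap control. Control livers ranged from 116 to 154 normalized TPM (median 130.2; mean 130.1 ± 10.4, SD, n = 14). At the middle dose the range was 71.5 to 110 (median 88.5; mean 91.8 ± 13.2, SD, n = 13), so that all 13 livers were below the lowest control liver. Of all rows, 14.2% were called against control at this dose, and the share without overlap was not counted. The separation is thus not shown to be particular to Lamtor1. At the low dose it was 89.7 to 137 (median 117; mean 116 ± 14.2, SD, n = 13), and at the high dose 107 to 159 (median 136; mean 136 ± 16.6, SD, n = 14). Against control the log2FC was -0.17 (SE 0.07), -0.51 (SE 0.07) and 0.06 (SE 0.07) at the low, middle and high dose. Lamtor1 was lower at the middle than at the low dose (log2FC of the low against the middle dose 0.34, 95% CI 0.19 to 0.48, adjusted p = 0.000412, limma). It was lower at the middle than at the high dose (-0.57, 95% CI -0.71 to -0.43, adjusted p = 4.1e-08) and lower at the low than at the high dose (-0.24, 95% CI -0.37 to -0.10, adjusted p = 0.0341). Rraga and Lamtor1 thus shared a low value at the middle dose, whereas at the high dose Rraga was at 0.725 times control and Lamtor1 at 1.04 times.

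Lamtor1 at the middle dose was low with and without the libraries that stand apart. Their median was 91.1 normalized TPM and that of the other 7 livers 88.5. When these 8 libraries were left out the contrasts of the middle dose with the other doses were 0.31 (adjusted p = 0.0162) and -0.54 (adjusted p = 1.58e-05), and the log2FC against control was -0.48. The smaller contrast of the low with the high dose was less firm: the call was lost when any 1 of 10 mice was left out (replicates 2, 5, 6, 8 and 12 at the low dose and 9, 10, 11, 13 and 14 at the high dose), with an adjusted p of up to 0.0804. It was also lost with the authors' scaling undone (-0.16, adjusted p = 0.246), with quantile normalization (-0.19, adjusted p = 0.121) and without a filter on low values (adjusted p = 0.0535).

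Lamtor2, the Ragulator subunit that binds Lamtor3, had wider spread. It ranged from 34.6 to 68.5 normalized TPM in control livers (median 43.8), from 42.9 to 76.2 at the low dose (median 53.7), from 37.0 to 73.7 at the middle dose (median 52.2) and from 30.8 to 82.8 at the high dose (median 48.0). At the low dose 12 of 13 livers were above the control median, and the log2FC against control was 0.31 (SE 0.12). None of its contrasts between doses passed the test (limma). The largest was 0.24 for the low against the high dose (95% CI -0.01 to 0.49, adjusted p = 0.303), followed by 0.19 for the low against the middle dose (adjusted p = 0.306) and 0.05 for the middle against the high dose (adjusted p = 0.818). In that order they were 0.19, 0.06 and 0.13 without the 8 libraries (adjusted p = 0.409, 0.878 and 0.679).

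The other Ragulator subunits, Lamtor3, Lamtor4 and Lamtor5, were not called against control at any dose. Lamtor3 at the high dose came nearest, with a mean of 4.25 against 5.78 normalized TPM in control (log2FC -0.37, adjusted p = 0.0827, limma), and it was called there without the 8 libraries (-0.36, adjusted p = 0.0375). Between doses, Lamtor4 (log2FC of the low against the middle dose -0.16, adjusted p = 0.0473) and Lamtor5 (-0.44, adjusted p = 0.0399) were lower at the low than at the middle dose, and Lamtor3 was higher at the middle than at the high dose (0.32, adjusted p = 0.047). Over the other 46 mice Lamtor5 and Lamtor3 turned direction, to 0.12 and -0.01 (adjusted p = 0.63 and 0.984). Lamtor4 was no longer called either (adjusted p = 0.0817), but its log2FC of -0.18 was as large as with all mice.

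**Figure D3:**
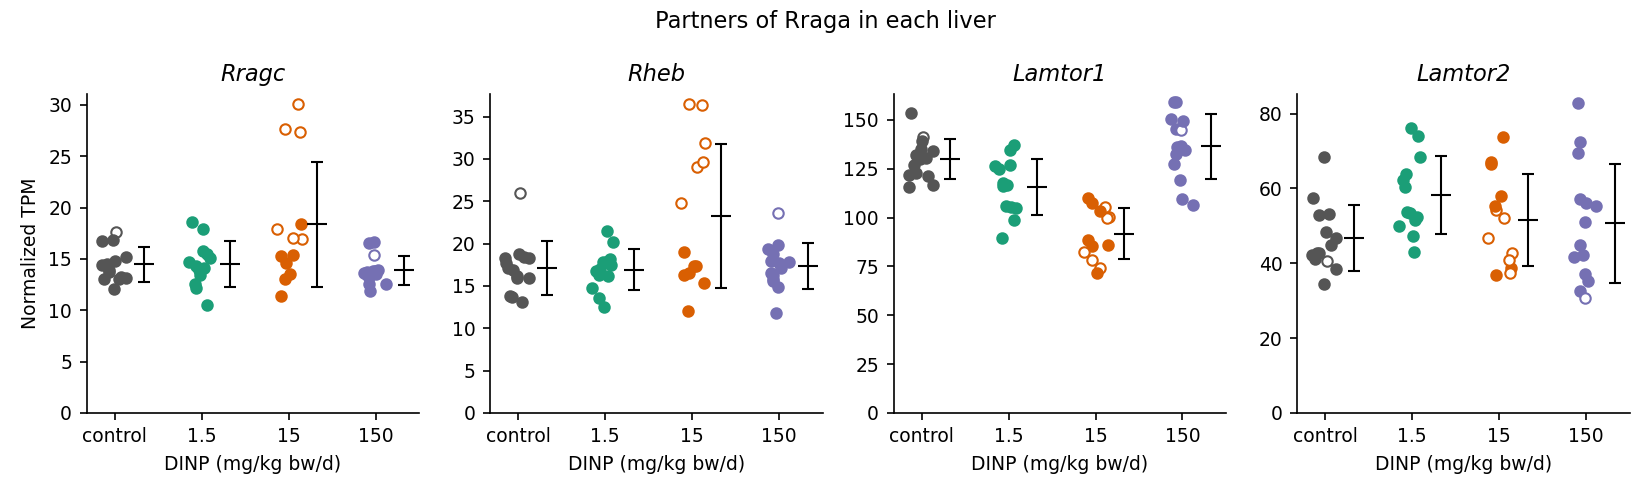
Normalized TPM (y axis) of Rragc, Rheb, Lamtor1 and Lamtor2 in each liver by DINP dose (x axis, mg/kg bw/d), with open points for the libraries that stand apart and mean ± SD beside each group. The open points are high for Rheb in all groups that hold one and for several Rragc livers at the middle dose, and are mixed with the others for Lamtor1.

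Rheb, the direct activator of mTOR, was high in the libraries that stand apart, in each of the 3 groups that hold one. It ranged from 13.0 to 26.0 normalized TPM in control livers (median 17.0), from 12.5 to 21.5 at the low dose (median 17.0), from 12.1 to 36.5 at the middle dose (median 19.0) and from 11.8 to 23.6 at the high dose (median 17.4). The highest liver in control (26.0) and at the high dose (23.6) was the one that stands apart there, and at the middle dose those 6 livers (24.8 to 36.5) did not overlap with the other 7 (12.1 to 19.0). In all, the 8 libraries had the 8 highest Rheb values of the 54. Many other rows set these libraries apart, and the share of rows that split in this way was not counted. The split is therefore not shown to be particular to Rheb. With all mice Rheb was higher at the middle than at the low dose (log2FC of the low against the middle dose -0.37, 95% CI -0.61 to -0.12, adjusted p = 0.0237, limma) and than at the high dose (0.33, 95% CI 0.10 to 0.57, adjusted p = 0.0376). With the 8 libraries left out both contrasts turned direction and were near 0, at 0.05 (adjusted p = 0.824) and -0.05 (adjusted p = 0.818). Leaving out single mice also ended these calls: any 1 of replicates 4 to 8 at the middle dose for the first (adjusted p up to 0.061), and any 1 of replicates 4 to 9 at the middle dose or of replicates 1, 2, 4 and 8 at the high dose for the second (up to 0.0937).

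Of the genes that restrain or resemble Rheb, none was called at any dose. The TSC complex genes Tsc1, Tsc2 and Tbc1d7 and the Rheb relative Rhebl1 had log2FC values against control from -0.28 (Tbc1d7 at the middle dose, SE 0.17, adjusted p = 0.274) to 0.29 (Tsc2 at the middle dose, SE 0.18, adjusted p = 0.321). Without the 8 libraries Tbc1d7 and Tsc2 at the middle dose came to -0.23 and 0.15 (adjusted p = 0.577 and 0.753, limma).

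Flcn, which encodes folliculin, was at a low level in every group. Its means were 4.99, 5.23, 5.22 and 5.58 normalized TPM in control and at the low, middle and high dose, over a range of 3.01 to 8.31 in control livers and of 3.05 to 7.38 in exposed livers. Its contrasts between doses lay between -0.08 and 0.01 on the log2 scale (adjusted p from 0.66 to 0.955, limma), with 95% CIs that together spanned -0.31 to 0.25. Without the 8 libraries they lay between -0.17 and 0.11 (adjusted p from 0.508 to 0.828). The partner genes Fnip1 and Fnip2 were not called. Fnip1 at the middle dose lay at the threshold, with a mean of 7.54 against 6.17 normalized TPM in control (log2FC 0.25, adjusted p = 0.0509), and it was 0.28 (adjusted p = 0.105) without the 8 libraries. With the replicate block Fnip1 was called there.

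The kinase gene Mtor and the gene of its Rag-binding subunit, Rptor, were near the floor of the scale. Mtor ranged from 2.01 to 5.93 normalized TPM in control livers and from 1.94 to 6.91 in exposed livers, and Rptor from 1.53 to 2.98 and from 0.981 to 3.32, which is 1 to 3 steps of the scale. Neither passed a test between doses. The Mtor contrasts were -0.19 for the low against the middle dose, -0.19 for the low against the high dose and -0.00 for the middle against the high dose (adjusted p = 0.395, 0.535 and 0.996, limma), with 95% CIs from -0.49 to 0.29. Rptor had contrasts of -0.10, 0.03 and 0.13 (adjusted p = 0.525, 0.922 and 0.389). At this resolution, differences of the size seen for Rraga at the high dose lie just inside the interval for Mtor, and evenness over the doses is not shown for it.

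The remaining mTORC1 genes were Mlst8, a subunit shared with mTORC2, and the inhibitors Akt1s1 and Deptor. Mlst8 was lower at the middle dose, with a mean of 1.61 against 2.72 normalized TPM in control (log2FC -0.54, SE 0.12, adjusted p = 0.00132, limma) and against 2.60 and 2.58 at the low and high dose. These levels are a few steps of the scale (a step was 0.764 to 1.11 in a library), and the means at the middle dose and in control differed by about 1 step. Without the 8 libraries it came to -0.37 (adjusted p = 0.126). Akt1s1 and Deptor were not called, and the largest value was that of Deptor at the low dose (0.28, adjusted p = 0.107).

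Next, the 9 genes were compared within groups, on deviations of log2(value + 1) from the group means, which do not hold the difference from control. Of 36 pairs, 1 passed (permutation test with 100000 resamples within groups, 2-sided, Benjamini-Hochberg adjustment over the 36): Rragc and Rheb, with r = 0.63 and rho = 0.52 (n = 54, p = 9e-05, adjusted p = 0.00324 for r). Without the 2 mice farthest from the median of Rragc, r was 0.50. The relation rests on the libraries that stand apart: over the other 46 mice r was 0.17 (permutation p = 0.293, adjusted p = 0.853), and within the middle-dose group it was 0.66 among the 6 and -0.17 among the other 7.

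Within groups, no pair that holds Rraga passed with the deposited values. By r over all mice, its largest values were with Rragc (r = -0.39, rho = -0.28, permutation p = 0.00995, adjusted p = 0.119), Lamtor1 (r = 0.34, rho = 0.29, adjusted p = 0.166) and Lamtor2 (r = -0.29, rho = -0.27, adjusted p = 0.245). Without the 2 mice farthest from the median of Rraga they were -0.30, 0.28 and -0.26. By rho the largest was with Mtor (r = -0.22, rho = -0.30, adjusted p = 0.379 and 0.213), which had r = -0.29 without those 2 mice and -0.17 over the 46. Over the 46 mice the values for Rragc, Lamtor1 and Lamtor2 were -0.06, 0.38 and -0.43 (adjusted p = 0.905, 0.154 and 0.108), so that the relation with Rragc was near 0 without the 8 libraries. With the authors' scaling undone, Rraga and Lamtor1 passed (r = 0.44, permutation test, adjusted p = 0.029). With values centred over all mice, r of Rraga was -0.40 with Rragc and 0.51 with Lamtor1. Such values hold the differences between groups that the choice used, so they are a description and give no test. Rraga and Rheb had r = -0.29 with all mice and 0.06 over the 46.

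**Figure D4:**
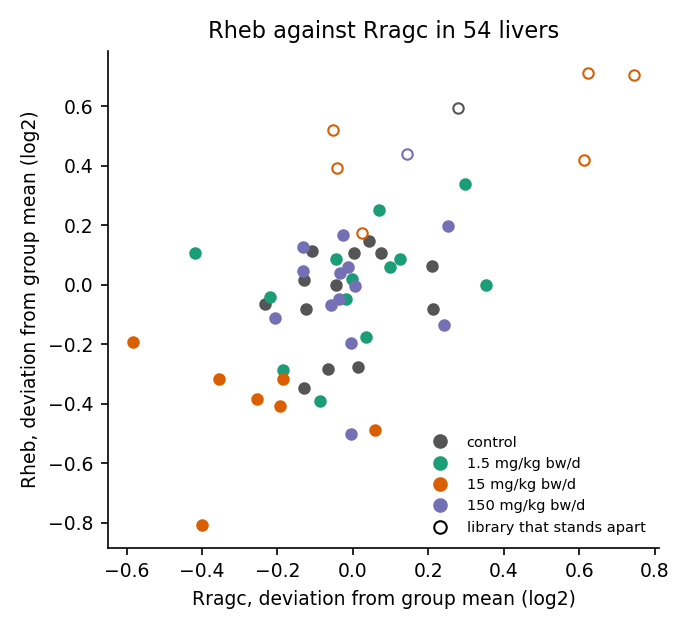
Rheb (y axis) against Rragc (x axis) as log2 deviations from the group mean in 54 livers, with colours for the dose groups and open points for the 8 libraries that stand apart. The 8 open points all lie above 0 for Rheb. With all mice r was 0.63, and over the 46 filled points 0.17.

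Other genes of the pathway were taken from 15 lists by role, apart from the 9 members: 147 of their 149 genes were in the table and 138 were tested against control. At the low dose 1 of 138 was called (0.725%, beside 1.20% of all rows), at the middle dose 24 (17.4%, beside 14.2%) and at the high dose 2 (1.45%, beside 2.17%). The median log2FC over the 138 genes was 0.01, -0.02 and -0.01, and over all rows 0.00, -0.00 and -0.01. The shares of called genes were thus near those of the whole table at each dose. Between doses, 34, 6 and 40 of 138 were called for low against middle, low against high and middle against high dose (24.6%, 4.35% and 29.0%, beside 21.4%, 4.61% and 20.0% of all rows). Without the 8 libraries the counts were 5, 12 and 17 (3.62%, 8.70% and 12.3%, beside 5.05%, 6.88% and 8.32%).

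With all mice, 2 genes were called at the low or high dose. Shmt2, a mitochondrial enzyme of one-carbon metabolism and a target of ATF4, was higher at both doses, with means of 79.4 and 77.6 against 65.0 normalized TPM in control (log2FC 0.29, adjusted p = 0.0426, and 0.26, adjusted p = 0.0486, limma). Ulk1, the autophagy kinase that mTORC1 inhibits, was lower at the high dose (11.7 against 15.7, log2FC -0.39, adjusted p = 0.0331) and at the middle dose (10.8, log2FC -0.51, adjusted p = 0.000892), where the call was lost without the 8 libraries (-0.33, adjusted p = 0.125). The calls at the low and high dose lay near the threshold. Leaving out 1 mouse of any group ended the call of Shmt2 at the low dose for 18 mice and at the high dose for 34 (adjusted p up to 0.0819 and 0.106), and that of Ulk1 at the high dose for 9 (up to 0.064). All 3 calls were also lost without a filter on low values (adjusted p from 0.0556 to 0.0748) and with the replicate block (adjusted p from 0.0575 to 0.0701). That of Shmt2 at the low dose was lost with only the 2 groups compared (adjusted p = 0.0529), and at the high dose with the authors' scaling undone, where its log2FC was 0.17 (adjusted p = 0.124). Without the 8 libraries these 3 calls remained (adjusted p from 0.0182 to 0.0315), and 4 genes were called at each of the 2 doses, beside 2.53% and 3.62% of all rows. Those gained were Eif4ebp3, of the family of translation repressors that mTORC1 inhibits, at both (0.56, adjusted p = 0.0284, and 0.51, adjusted p = 0.0428), Npc1, a lysosomal cholesterol transporter (0.29, adjusted p = 0.0263), and Psap, the precursor of the saposins (-0.67, adjusted p = 0.000542), at the low dose, and Lamtor3 at the high dose. With all mice Eif4ebp3 had 0.52 and 0.48 (adjusted p = 0.0599 and 0.06), Npc1 0.32 (adjusted p = 0.0877) and Psap -0.74 (adjusted p = 0.0613).

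At the middle dose, 10 genes were higher and 14 lower. Among 16 genes of growth factor and energy input, Akt1 (log2FC -0.31, adjusted p = 0.00174, limma) and Akt2 (-0.28, adjusted p = 0.0197), kinases downstream of insulin, were lower. So were Irs1, an adaptor of the insulin receptor (-0.41, adjusted p = 0.00434), and Ddit4, which encodes the mTORC1 inhibitor REDD1 (-0.70, adjusted p = 0.007). The receptor gene Insr (0.24) and Prkaa2 (0.37), a catalytic subunit of AMPK, were higher (adjusted p = 0.0198 and 0.00816). Of 10 genes of amino acid sensing and transport, the sensor gene Sesn1 was higher (0.40, adjusted p = 0.0348) and the transporter genes Slc36a1 (-0.34, adjusted p = 0.0122) and Slc3a2 (-0.32, adjusted p = 0.0157) were lower.

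Among 17 mTORC1 substrates and effectors, Rps6, the ribosomal protein S6, was higher (112.9 against 80.9 normalized TPM, log2FC 0.44, adjusted p = 0.0043, limma), and Eif4e (-0.40, adjusted p = 0.0319) and Ulk1 were lower. Of 29 autophagy genes, Atg3 (0.48, adjusted p = 0.000236), Uvrag (0.34) and Atg2b (0.29) were higher, and Atg101 (-0.44), Map1lc3a (-0.36, adjusted p = 0.00128) and Ulk1 were lower. Of 23 lysosomal genes, Lamp2 (0.28, adjusted p = 0.00329) and the protease gene Ctsb (0.28) were higher, while Atp6ap1 (-0.60, adjusted p = 0.00127) and Atp6v1b2 (-0.34), which belong to the proton pump, were lower. Against control, no gene of GATOR1, which inactivates RagA, of GATOR2 or of KICSTOR was called at any dose, out of 3, 4 and 2 tested. Between the low and the middle dose, 1 of 3 GATOR1 and 2 of 4 GATOR2 genes were called, beside 21.4% of all rows. Between the middle and the high dose, 2 of 4 GATOR2 genes were called, beside 20.0%. Srebf2, a transcription factor of sterol synthesis, was the 1 of 10 SREBP genes called (-0.45, adjusted p = 0.0452), and none of 9 ATF4 targets was called at this dose. Leaving out 1 mouse ended the calls of Srebf2, Sesn1, Uvrag, Eif4e and Atg2b for 14, 11, 8, 6 and 4 mice (adjusted p up to 0.0979). With each library's trend over the GC content of transcript ends removed, chosen after seeing the data, 21 genes were called, and Sesn1, Uvrag, Atg2b and Srebf2 were not (adjusted p from 0.0515 to 0.0977).

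With the 8 libraries left out, which leaves 7 of 13 mice at this dose, all 24 kept their direction, 4 remained called (Irs1 at -0.61, Slc3a2 at -0.37, Map1lc3a at -0.36 and Atg3 at 0.40, adjusted p = 0.00091, 0.0117, 0.0102 and 0.00989, limma) and the log2FC of 6 fell to under 0.5 times that with all mice. These 6 were Rps6 at 0.14, Eif4e at -0.10, Prkaa2 at 0.18, Ctsb at 0.11, Srebf2 at -0.13 and Atp6ap1 at -0.20 (adjusted p from 0.265 to 0.734). The 24 were picked for their calls with all mice, and the mice left are among those. Kept directions are thus largely set by the choice, and nothing is read from them. Other calls were lost at a fold as large as before, as for Uvrag (0.42, adjusted p = 0.0535) and Atp6v1b2 (-0.36, adjusted p = 0.0601), with fewer mice in the fit. In all 9 of 138 were then called, beside 5.31% of all rows. The 5 that were not among the 24 were Psap (-0.62, against 0.06 with all mice), Gabarap (-0.25) and Lamp1 (-0.21), lower, and Pdcd4 (0.44) and Insig1 (0.80), higher, with adjusted p from 0.00415 to 0.0199.

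**Figure D5:**
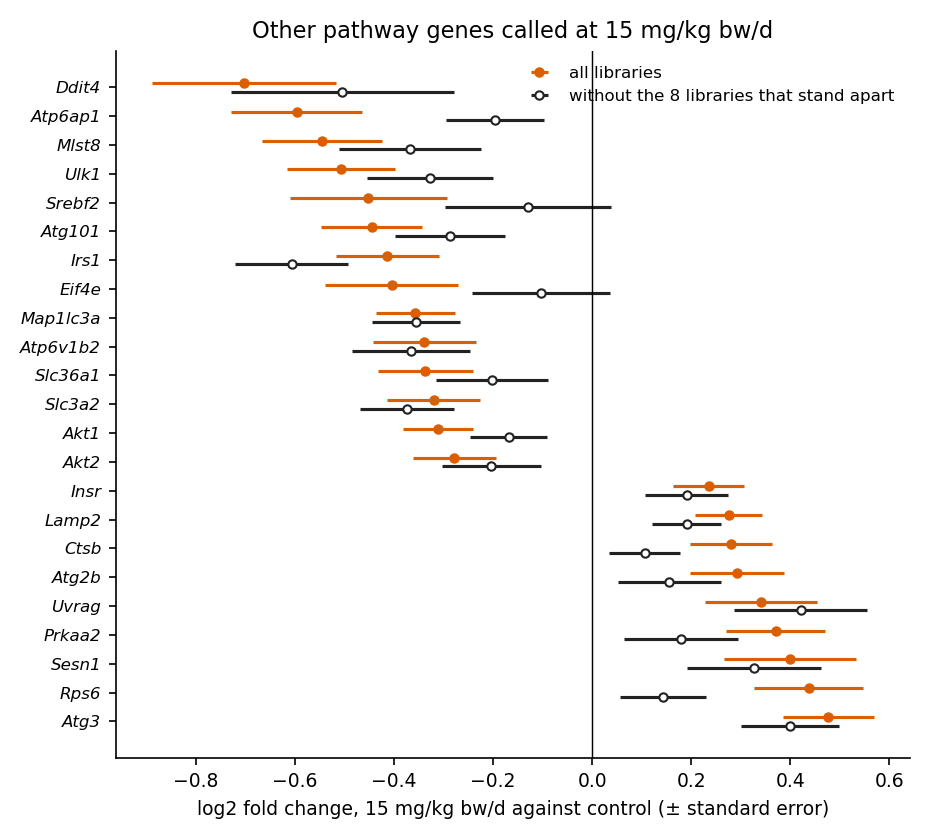
Log2 fold change at the middle dose against control (x axis, ± standard error) of 23 of the 24 other pathway genes called there (y axis), with all libraries (filled) and without the 8 that stand apart (open). All 23 keep their side of 0, and 6 of them shrink to under 0.5 times their size. The genes were picked for their calls with all libraries, so nothing is read from the kept side.

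The gene nearest to Rraga is Haus6, which ends 1570 bases beyond it on the opposite strand. It had a mean of 0.651 normalized TPM and was not tested. Within 500 kb the annotation gives 14 genes, of which 4 were tested. Plin2, a coat protein of lipid droplets 71.1 kb away, had log2FC values of -0.07, -0.27 and 0.30 at the low, middle and high dose (adjusted p = 0.915, 0.285 and 0.377, limma), on means of 335.2 normalized TPM in control and 335.5, 283.8 and 415.2 in the dose groups. Dennd4c and Acer2 were not called (log2FC from -0.17 to 0.12, adjusted p from 0.586 to 0.915). Rps6, 277 kb away, was the one neighbour of 4 called at the middle dose, beside 14.2% of all rows. It was higher there with all mice, and without the 8 libraries the call was lost (0.14, adjusted p = 0.38). No tested neighbour was called at the other doses.

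The rows whose levels were most like those of Rraga over the 54 mice, by Pearson's r on log2(value + 1), were Laptm4a, a lysosomal membrane protein (r = 0.83), the splicing factor gene U2af1 (0.79), the thioredoxin-like ER protein gene Tmx1 (0.71), the sulfhydryl oxidase gene Qsox1 (0.70) and Keap1, whose product holds down NRF2 (0.70). These values contain the shared difference between groups. On deviations from the group means the first were U2af1 (0.73) and Laptm4a (0.72), followed by Rpn1 (0.65), Dcaf13 (0.65) and Plaa (0.64). All rows come from the same libraries, so that any property of a library is common to the points. Without the 2 mice with the most extreme Rraga, U2af1 and Laptm4a stood at 0.72 and 0.69, and over the 46 mice at 0.69 and 0.62. The highest r of a member with Rraga within groups was the 0.34 of Lamtor1. That is the highest among the few other members, whereas the rows above are the highest among all rows tested. The values are therefore not set against each other. Against control, Laptm4a had log2FC values of -0.24, -0.30 and -0.24, and U2af1 of -0.39, -0.50 and -0.43, at the low, middle and high dose.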

How the data were processed

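The table holds 54 livers. Per the labels, reads were processed with STAR, RSEM and Salmon on GRCm38; the study's methods state a pipeline release, and versions of the single tools are not given in the sources used here. The authors deposited scaled signal values: within each mouse they are whole multiples of 1 step (0.764 to 1.11, largest distance from a whole number 6.66e-05), and the whole numbers sum to 948342 to 980641, as TPM rounded to whole numbers would. That origin is inferred from this pattern. They are no counts, so no count test was run, and depth and its precision are unknown.

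Values were analysed as log2(value + 1) with limma 3.58.1 in R 4.3.3 (lmFit, eBayes with trend), 4 groups in 1 fit, on rows with a mean of at least 1, with Benjamini-Hochberg adjustment per contrast over 11431 rows and a threshold of 0.05. Scripts were tested on simulated data. GC content (last 500 bases) was known for 96.0% of tested rows. Figures were drawn with matplotlib 3.10.9. The 9 members, the gene lists and the tests were chosen with earlier results of these data known. Named were all members, partners in their complexes, list genes that were called, genes within 500 kb of Rraga and the 5 rows most like it by each measure. The values of 1 list gene are not reported here.

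Pair correlations used 100000 resamples. Alternatives were other pseudocounts, filters and scalings, fits of the compared groups only, a replicate block, array weights and leaving out each mouse. Leaving out the libraries that stand apart and removing the GC trend were chosen after seeing the data. Nothing in the labels ties mice of the same number. Where p-values are given, each mouse counts as 1 replicate.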

Additional observations from a re-analysis of the deposited data

How the results depend on the processing

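Rraga kept its sign against control at every dose under every alternative and with each mouse left out, and its log2FC over all of these ranged from -0.70 to -0.61, -0.76 to -0.50 and -0.56 to -0.42 at the low, middle and high dose. The choice of Rraga used this sign and these fits share mice, so the ranges are a description and nothing is read from the kept sign. Without the libraries that stand apart, chosen after seeing the data, Rheb reversed to 0.0499 (the low against the middle dose), -0.0483 (the middle against the high dose) and -0.0143 (the middle dose against control). The members called between the low and middle and between the middle and high dose went from 3 to 1 each with only the 2 groups compared, with array weights and without those libraries. The share of all rows called fell as well, from 21.4% to 15.5%, 13.2% and 5.05% between the low and middle dose. Between the middle and high dose it fell from 20.0% to 14.8%, 14.4% and 8.32%. The 1 member called between the low and high dose (beside 4.61% of all rows) became 0 without a filter (1.85%), with quantile normalization (4.86%) and with the authors' scaling undone (5.85%). With each mouse left out these 3 counts ranged from 1 to 3, from 2 to 3 and from 0 to 1.

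Counts of pathway genes called are given here with the share of all rows called under the same setting. At the low dose 1 (1.20%) became 0 without a filter (0.293%) or with the replicate block (0.586%). It became 3 with a mean of at least 5 (2.44%) or the 2 groups only (2.42%), and 4 with array weights (2.60%) or without the 8 libraries (2.53%). At the middle dose 24 (14.2%) became 15 with the 2 groups only (9.35%) and 9 without the 8 libraries (5.31%). At the high dose 2 (2.17%) became 0 without a filter (0.923%) or with the replicate block (1.86%). It became 6 with the scaling undone (3.12%), 4 with the 2 groups only (3.28%) or without the 8 libraries (3.62%), and 11 with array weights (4.27%). With each mouse left out the counts ranged from 0 to 4, 19 to 27 and 0 to 4. The 1 pair called became 3 with the scaling undone (Rraga and Lamtor1 among them), 0 without the 8 libraries, and 1 to 2 with each mouse left out. Centring over all mice gave 3, but it keeps the differences between groups that the choice of Rraga used, and nothing is read from that count. The cause of these changes was not tested.

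Mice with the same replicate number did not deviate together on average (mean r -0.0025 over 79 pairs, from -0.359 to 0.243), so these values show no pairing by number. Whether the numbers follow an order of processing was not tested. With the replicate block Rheb between the middle and high dose was 0.33 (adjusted p = 0.0614, limma). At the middle dose against control, the block gained the call of Fnip1 and lost those of Atg2b and Srebf2 (adjusted p = 0.0561 and 0.0686). Depth is unknown, and Rptor, Mtor, Rragd and Mlst8 lie within a few steps of the scale.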
